A study of Mus musculus with 8 samples.

Results

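Ogdh, the gene for E1 of the 2-oxoglutarate dehydrogenase complex, is described here with the genes of the other subunits, Dlst (E2) and Dld (E3), and with the E1 paralogues Dhtkd1 and Ogdhl. The members were taken by gene symbol, and all 5 were found among the 27710 genes listed in each count file. RNA came from mouse bone marrow depleted of mature lineages, which leaves immature blood cells, and was counted in 8 libraries. The cells were cultured with serum and cytokines. There were 4 wild-type (WT) libraries and 4 of the genotype Vav-iCre+; Alkbh5fl/fl, in which both copies of Alkbh5 carry recombination sites and the recombinase is driven in blood cells. These are called Alkbh5-deficient below. For either genotype, cells of 3 libraries had taken up 4-thiouridine (s4U, 100 µM for 2 h), a nucleoside that marks RNA made during feeding, and the agent label of 1 library reads none. The treatment text describes feeding for every sample, so the sources conflict on these 2 libraries. The agent label was followed, and they are called unlabelled. RNA of every library went through the same chemistry that recodes s4U. The labels name neither the recombinase status of the WT cells nor the age of the mice.

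The 2-oxoglutarate dehydrogenase complex carries out the oxidative decarboxylation of 2-oxoglutarate to succinyl-CoA in the tricarboxylic acid (TCA) cycle. E1 decarboxylates the substrate with a thiamine cofactor, E2 passes the succinyl group from a lipoyl arm to coenzyme A, and E3 reoxidises that arm. E3 is shared with the pyruvate and branched-chain dehydrogenase complexes and with the glycine cleavage system, whereas OGDH is particular to the 2-oxoglutarate complex. DHTKD1 acts on 2-oxoadipate in lysine and tryptophan breakdown and OGDHL is an OGDH-like protein best known from brain. 2-Oxoglutarate is also the cosubstrate of ALKBH5, an enzyme that demethylates N6-methyladenosine (m6A) in RNA.

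GGACT is one form of the sequence in which m6A is often placed, and these stretches are shown because the comparison removes an m6A demethylase. Methylation itself was not measured, and a match is a description, not a site of methylation. The sense strand of the longest coding sequence of each member was searched in GENCODE M21 (GRCm38), without other forms of the consensus. That of Ogdh holds 5 matches in 3102 bases, that of Dhtkd1 5 in 2763, that of Ogdhl 4 in 3087 and that of Dld 1 in 1527, and that of Dlst, with 1362 bases, holds 0. Among genes in the files with a coding sequence within 1.5-fold of the same length, 95.2% held at least 1 match for the length of Ogdh, 82.2% for Dld and 79.0% for Dlst. The median for the length of Ogdh was 3 matches. The matches of Ogdh (all on the plus strand of chromosome 11), that of Dld (minus strand of chromosome 12) and the Ogdhl match closest in sequence to Ogdh (plus strand of chromosome 14) are given in coding exons, with GGACT in capitals.
Ogdh site 1, chr11:6296981-6297005: tttcatttaaGGACTtgtgctgcta
Ogdh site 2, chr11:6297122-6297146: tttcttagtgGGACTagttcgaact
Ogdh site 3, chr11:6339216-6339240: caaatggagtGGACTatgtgatcat
Ogdh site 4, chr11:6348693-6348717: gtgacgaaccGGACTgtggactggg
Ogdh site 5, chr11:6348700-6348724: accggactgtGGACTgggccctggc
Dld site 1, chr12:31334678-31334702: tcagaatttgGGACTagaagagctt
Ogdhl site 3, chr14:32342082-32342106: agcgcacagtGGACTgggccctggc
Sites 4 and 5 of Ogdh begin 7 bases apart. Site 5 of Ogdh and site 3 of Ogdhl share 17 bases in a row, which include GGACT. The transcripts of Ogdh and Ogdhl were 77.2% identical over 2544 aligned bases. By BLAST, transcripts of Dlst and Dld had no alignment of 100 bases or more to those of another gene, and no annotated gene overlapped Ogdh, Dlst, Dld or Ogdhl. Dhtkd1 shares 120 exonic bases with the antisense gene Gm13267, which is not among the genes listed in the files.

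Libraries held from 5723245 to 8615997 gene counts, and 37.6% to 52.1% of all counts fell in no gene. The labels do not state separate animals for the replicates, so p-values cover only the spread of these samples, which may be technical in part. By Xist and the Y-linked Ddx3y, each fed library held RNA of 1 sex, replicate 2 of either genotype another than replicates 1 and 3, and the unlabelled libraries that of both. By sex, fed replicate 2 of either genotype did not come from the animals of fed replicates 1 and 3. All 8 progenitor markers, Kit, Cd34 and Mpo among them, were detected in every library. The summed level of 4 stroma and endothelium markers varied most, from 7.33 CPM (counts scaled to library size) in WT fed replicate 1 and 11.2 CPM in Alkbh5-deficient fed replicate 1 to 1224 CPM in WT fed replicate 3. WT fed replicate 3 also had 14.2% of its gene counts in the ribosomal-repeat gene Gm26917, against 6.33% to 8.34% elsewhere. Alkbh5 had 1061 to 1479 counts in the WT libraries and 0 or 1 count in the Alkbh5-deficient ones.

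The first question was whether the RNA of the complex differs between genotypes in fed cells. Of the members, Ogdh had groups that did not overlap, with lower levels in Alkbh5-deficient cells. In CPM scaled by TMM over the 8 libraries, it lay at 239, 210 and 253 in WT fed replicates 1 to 3 and at 92.9, 115 and 97.6 in the Alkbh5-deficient fed replicates. Every Alkbh5-deficient library was below every WT library. Stroma and endothelium markers summed to 7.33, 205 and 1224 CPM in WT fed replicates and to 11.2, 381 and 402 CPM in Alkbh5-deficient ones. The part of those cells in the Ogdh difference was not tested. The summed level of 5 erythroid markers was 56.0, 151 and 140 CPM in WT and 40.0, 101 and 84.1 CPM in Alkbh5-deficient fed replicates. It was lower in the Alkbh5-deficient library of each same-numbered pair, with overlapping groups, and at 98.8 against 87.3 CPM in the unlabelled libraries. Among WT fed libraries, replicate 2 had the highest sum (151 CPM) and the lowest Ogdh (210 CPM). The order of 3 libraries of 1 genotype cannot decide what part erythroid cells have in the difference between genotypes. All 5 erythroid markers were detected in every library, and the part of those cells in the Ogdh difference was not tested. In bulk RNA, fewer cells of a type and less RNA per cell cannot be told apart. The groups averaged 234 ± 22.1 and 102 ± 11.8 CPM (SD, n = 3 each). Ogdh (ENSMUSG00000020456.17, chromosome 11, 6291633 to 6356642, plus strand) had a log2 fold change of -1.20 ± 0.16 (SE), or 43.5% of WT with a 95% interval of 33.9% to 55.9%. The edgeR quasi-likelihood test gave an unadjusted p of 5.24e-05 and an adjusted p of 0.349 over 13342 genes, so Ogdh did not pass the threshold of 0.05. It had the second-smallest p of all genes, and 1 gene passed, Alkbh5 itself, or 0.0075% of those tested. Alkbh5 also lies on chromosome 11 (60536381 to 60558512), and the part of this shared chromosome in the Ogdh difference was not tested. An unadjusted p under 0.05 was reached by 151 genes, or 1.13%. Groups without overlap, and lower in Alkbh5-deficient cells, were seen for 3.05% of the genes tested, and higher ones for 2.57%. Ogdh passed with DESeq2 (adjusted p = 7.57e-06) and in edgeR without a filter on low counts (adjusted p = 0.00894).

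Dlst, whose product forms the core of the complex, lay close together in both genotypes. Its levels were 264, 294 and 286 CPM in WT fed replicates and 247, 281 and 267 CPM in Alkbh5-deficient fed replicates. The groups overlapped, at 281 ± 15.8 and 265 ± 17.2 CPM (SD, n = 3 each). For Dlst (ENSMUSG00000004789.10, chromosome 12, 85110833 to 85134845, plus strand) the log2 fold change came to -0.09 ± 0.14 (SE), with an edgeR adjusted p of 1.00. Its 95% interval ran from 74.9% to 118% of WT, which does not include the 43.5% of Ogdh. Its coefficient of variation was 5.60% in WT and 6.49% in Alkbh5-deficient fed libraries, against 9.44% and 11.6% for Ogdh. Between same-numbered libraries Dlst was at 93.6%, 95.6% and 93.1% of WT, while Ogdh was at 38.9%, 54.9% and 38.5%.

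Dld, the E3 gene, varied more between libraries of 1 genotype than between genotypes. It lay at 78.6, 81.3 and 46.4 CPM in WT fed replicates and at 80.8, 68.2 and 86.1 CPM in Alkbh5-deficient ones. WT fed replicate 3 was the lowest library, with 238 counts, and the other 5 fed libraries lay between 68.2 and 86.1 CPM. The groups averaged 68.8 ± 19.4 and 78.4 ± 9.20 CPM (SD, n = 3 each). Dld (ENSMUSG00000020664.10, chromosome 12, 31331277 to 31351453, minus strand) differed by 0.18 ± 0.23 on the log2 scale (SE), with a 95% interval of 78.1% to 165% of WT (edgeR adjusted p = 1.00). Without WT fed replicate 3 the log2 fold change was -0.0273, of opposite sign. The part of the high stroma markers and of Gm26917 of that library in its Dld level was not tested.

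The paralogues were present at low levels. Dhtkd1 counts were 8, 14 and 17 for WT fed replicates and 7, 22 and 22 for Alkbh5-deficient ones, or 1.33, 1.61 and 3.31 CPM against 1.05, 3.01 and 2.76 CPM. The lowest library of each genotype was replicate 1, which was also the one with the lowest stroma and endothelium markers, and the part of those cells was not tested. Dhtkd1 (ENSMUSG00000025815.13, chromosome 2, 5896115 to 5942792, minus strand) differed by 0.16 ± 0.54 on the log2 scale (SE), with a wide 95% interval of 47.1% to 265% of WT at this depth (edgeR adjusted p = 1.00). Its sign depended on single libraries, since leaving out 1 fed library gave values from -0.0921 to 0.62. Ogdhl (ENSMUSG00000021913.8, chromosome 14, 32322019 to 32348151, plus strand) was counted 0, 1 and 2 times for WT fed replicates, 0, 2 and 2 times for Alkbh5-deficient ones, and 1 and 0 times for the WT and Alkbh5-deficient libraries without s4U. It did not pass the low-count filter and was not tested. All its values are under 3 counts, which correspond to 0.327 to 0.585 CPM depending on the library. Of the 5 members 4 were thus tested, 0 passed, and 1 had groups without overlap.

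**Figure D1:**
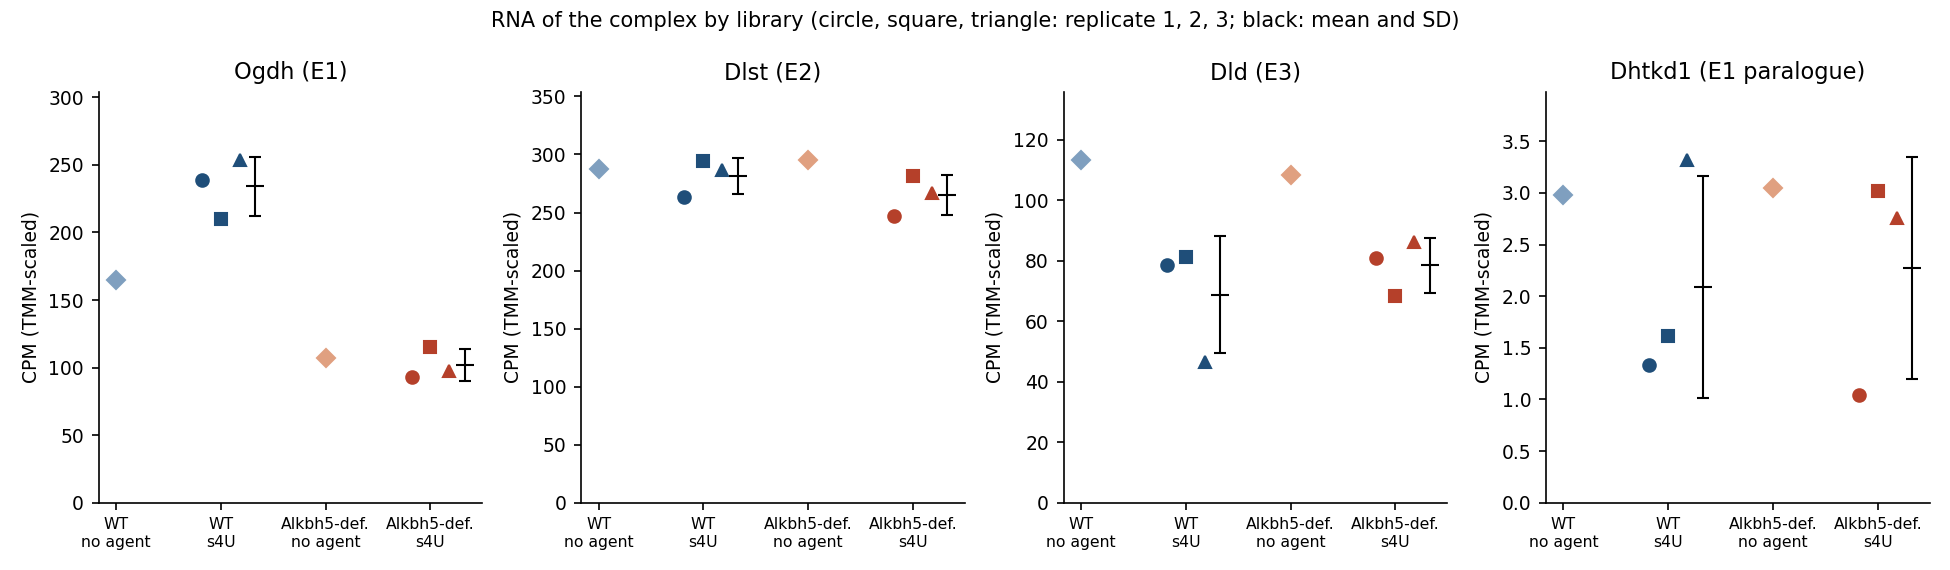
Level of Ogdh, Dlst, Dld and Dhtkd1 in CPM (y axes, from 0) in each of the 8 libraries, by genotype and agent. Points are libraries (circle, square and triangle are fed replicates 1, 2 and 3, diamonds are unlabelled) and black marks are mean and SD of 3 fed libraries. For Ogdh all 3 WT fed points lie at 210 CPM or above and all 3 Alkbh5-deficient fed points at 115 CPM or below, while the groups overlap for the other genes.

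Ogdh was next set against its partners inside each library, because a ratio of 2 counts from the same library does not depend on library size or scaling. The Ogdh to Dlst count ratio was 0.906, 0.714 and 0.884 in WT fed replicates. It was 0.376, 0.410 and 0.366 in Alkbh5-deficient fed replicates, with the groups apart. The 95% counting interval of the lowest WT library began at 0.672 and that of the highest Alkbh5-deficient library ended at 0.444. On the log2 scale the mean difference was -1.11, or 46.2% of WT. The exact two-sided permutation test over 3 against 3 libraries gave p = 0.10, the smallest it allows, and p = 0.15 adjusted over the 3 ratios. Over all 8 libraries, with genotypes permuted within agent, the mean log2 difference was -1.001 and the exact p was 0.05, again the smallest possible.

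The Ogdh to Dld count ratio was 3.04, 2.58 and 5.46 in WT fed replicates and 1.15, 1.69 and 1.13 in Alkbh5-deficient ones. The groups did not overlap, and the WT library with 5.46 is the one with low Dld. The mean log2 difference was -1.43, or 37.2% of WT (exact two-sided permutation p = 0.10, adjusted 0.15), and without WT fed replicate 3 it was -1.11. The Dlst to Dld count ratio, which leaves Ogdh out, was 3.35, 3.62 and 6.17 in WT fed replicates and 3.06, 4.12 and 3.10 in Alkbh5-deficient ones. These groups overlapped, with a mean log2 difference of -0.31 (exact two-sided permutation p = 0.50, adjusted 0.50).

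**Figure D2:**
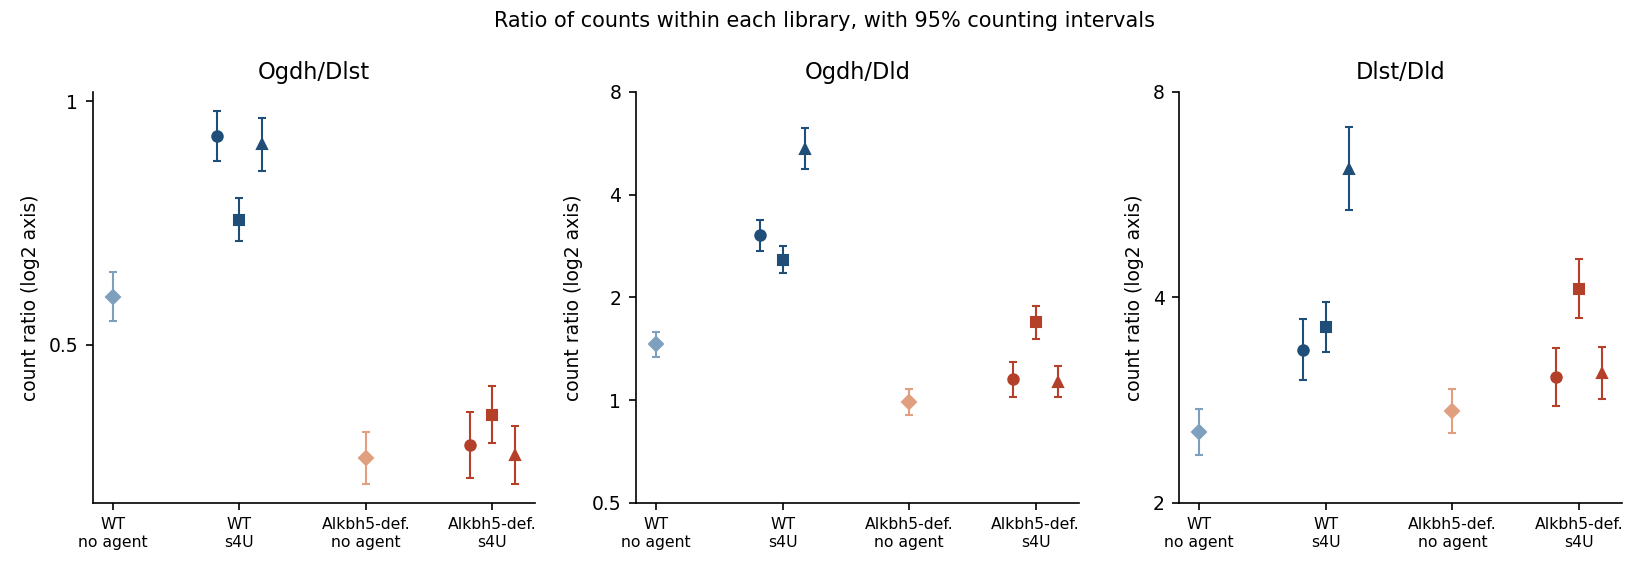
Ratio of counts of 2 genes in the same library (y axes, log2 scale) for Ogdh to Dlst, Ogdh to Dld and Dlst to Dld, with 95% exact binomial intervals that cover counting error only. Symbols and colours are as for the levels by library. The Ogdh ratios of WT fed libraries lie above those of Alkbh5-deficient fed libraries (0.714 or more against 0.410 or less for Dlst), and the Dlst to Dld ratios overlap.

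Levels of different genes were compared per length. Per kb of the transcript with the longest coding sequence, WT fed libraries had 102 ± 5.70 CPM per kb of Dlst, 57.4 ± 5.42 of Ogdh and 27.0 ± 7.63 of Dld (SD, n = 3), with no overlap between neighbours in that order. Alkbh5-deficient fed libraries had 95.8 ± 6.22 CPM per kb of Dlst, 30.8 ± 3.62 of Dld and 25.0 ± 2.89 of Ogdh. There the ranges of Dld (26.8 to 33.9) and Ogdh (22.8 to 28.3) overlapped, so their order is not resolved. The rank of Dlst depended on the length used. Per kb of all annotated exons, which for Dlst add up to 9.559 kb with retained introns, Ogdh led in WT fed libraries with 42.9 ± 4.05 CPM per kb, before Dlst with 29.4 ± 1.65 and Dld with 18.7 ± 5.27. On that scale Ogdh was the lowest of the 3 in Alkbh5-deficient fed libraries, at 18.7 ± 2.16 against 21.3 ± 2.50 for Dld, with overlapping ranges. Mean levels over all 8 libraries on that scale were compared with those of 11674 protein-coding genes. They were above 87.4% of these genes for Ogdh, 87.3% for Dlst, 82.8% for Dld and 4.59% for Dhtkd1. The mean of Ogdh covers both genotypes.

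**Figure D3:**
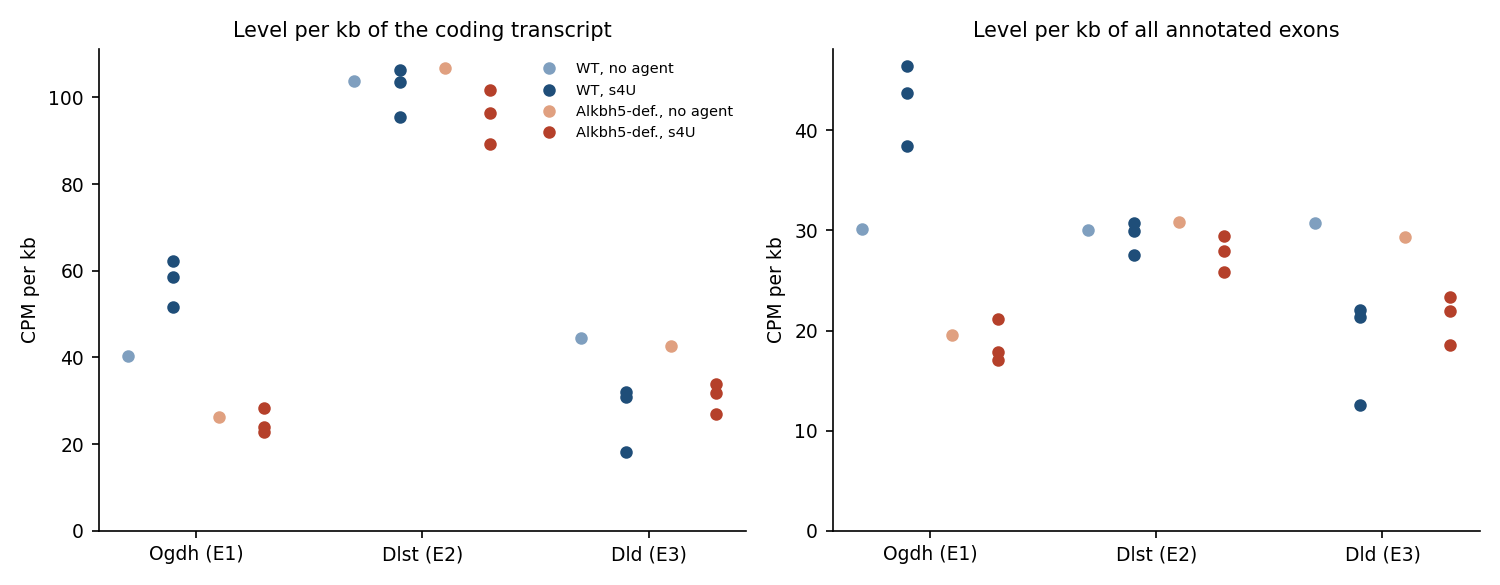
Level of the 3 subunit genes in CPM per kb (y axes, from 0), left over the length of the coding transcript and right over all annotated exons. Each point is a library, coloured by genotype and agent. Ogdh in Alkbh5-deficient fed libraries (22.8 to 28.3 CPM per kb of transcript) overlaps the range of Dld, whereas in WT fed libraries it lies at 51.5 or above, over Dld.

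By the agent label a single library of each genotype had no s4U, so these values have no replicate check. Ogdh had 1269 counts in the WT and 981 in the Alkbh5-deficient library, or 165 against 107 CPM. That is 64.9% of WT (59.7% to 70.6% by counting error alone). Dlst was at 103% (97.0% to 109%), Dld at 95.7% (87.3% to 105%) and Dhtkd1, with 23 and 28 counts, at 102% (56.8% to 186%). The Ogdh to Dlst count ratio was 0.573 in the WT and 0.362 in the Alkbh5-deficient unlabelled library. The WT value lies below all 3 WT fed libraries, and the Alkbh5-deficient value lies just below those of the Alkbh5-deficient fed libraries, of which the lowest is 0.366.

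Whether the genotype difference in Ogdh itself differs with s4U was tested as an interaction. With 1 unlabelled library per genotype, its error and p rest on the spread among fed libraries, and the unlabelled libraries are assumed to vary like them. The unlabelled libraries also held RNA of both sexes, unlike the fed ones. WT fed libraries averaged 1.42 times the unlabelled WT level of Ogdh, and all 3 lay above it. Alkbh5-deficient fed libraries averaged 0.954 times theirs, with 1 above and 2 below. The interaction was -0.58 ± 0.32 on the log2 scale (SE, edgeR unadjusted p = 0.106, adjusted p = 1.00), with a 95% interval from -1.30 to 0.15. It called 0 of 14988 genes in edgeR, or 0%, while 24 had an unadjusted p under 0.05, and DESeq2 called 0 as well. Dlst, Dld and Dhtkd1 had interaction values of -0.13, 0.25 and 0.13.

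Between fed and unlabelled libraries, adjusted for genotype, Dld had the smallest p of the members. It stood at 113 CPM without s4U in WT cells, at 108 CPM without s4U in Alkbh5-deficient cells and at most at 86.1 CPM in any fed library, so the 2 unlabelled libraries were the highest. The log2 fold change was -0.59 ± 0.21 (SE), or 66.4% of the unlabelled level with a 95% interval of 48.2% to 91.3% (edgeR unadjusted p = 0.0171, adjusted p = 0.177). In this comparison 2880 of 14232 genes, or 20.2%, had an unadjusted p under 0.05, and 4 genes, or 0.0281%, passed. Ogdh was at 0.21 ± 0.17, Dlst at -0.09 ± 0.13 and Dhtkd1 at -0.48 ± 0.47 on the log2 scale (SE, edgeR adjusted p = 0.516, 0.709 and 0.589). Since the unlabelled libraries held RNA of 2 sexes and the fed ones of 1, feeding and the source of the cells cannot be told apart here.

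Other genes that work with the complex were taken from lists chosen by function. Of the 50 genes listed, 43 were tested, and 0 passed in either direction between genotypes in fed cells by edgeR, with 0 at an unadjusted p under 0.05. Their median log2 fold change was -0.04, with 25 negative and 18 positive, beside a median of 0.00 over all genes tested, of which 49.8% were negative. The sister complexes, which share E3 or have the same build, ranged from -0.14 to 0.14 over 7 genes. Pdha1 and Pdhb, which encode E1 of the pyruvate dehydrogenase complex, were at 0.14 ± 0.19 and -0.09 ± 0.16 (SE), and Pdhx, its E3-binding protein, at -0.08 ± 0.20. Dlat, its E2 gene, lay at 47.0, 37.9 and 37.4 CPM in WT and 37.0, 37.3 and 36.7 CPM in Alkbh5-deficient fed replicates, which is a lower group without overlap but by a margin of less than 1 CPM. Bckdha, Bckdhb and Dbt, of the branched-chain complex, were at -0.11 ± 0.24, -0.08 ± 0.37 and -0.08 ± 0.21 (SE). In these 43 genes 3 had groups without overlap, beside 5.62% of all genes tested.

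Enzymes of the adjacent reactions make 2-oxoglutarate (the Idh3 subunits and Idh2) or use succinyl-CoA (Sucla2, Suclg1 and Suclg2). All 7 were tested and ranged from -0.20 to 0.23, with a median of -0.03, and the largest was Sucla2 at 0.23 ± 0.33 (SE). Suclg1 lay at 70.6, 72.0 and 88.1 CPM in WT and 70.0, 67.1 and 68.0 CPM in Alkbh5-deficient fed replicates. Of 10 genes for lipoylation and the iron-sulfur clusters it needs, 9 were tested, with a median of 0.03, and Glrx5, a glutaredoxin for iron-sulfur clusters, was largest at -0.28 ± 0.23 (SE). Of 9 kinases and phosphatases of the sister complexes 8 were tested, with a median of 0.11, and Pdp1, a pyruvate dehydrogenase phosphatase, was at 0.45 ± 0.33. Glud1 and other genes of 2-oxoglutarate transport and glutamate entry had a median of -0.04 over 5 genes. Of glycine cleavage genes 1 of 3 was tested, Gcsh, at -0.04 ± 0.19, and Mrps36, an adaptor that links E3 to the complex, was at 0.04 ± 0.35. Of 4 lysine breakdown genes 2 were tested, Aldh7a1 at -0.36 ± 0.25 and Gcdh at -0.30 ± 0.23.

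**Figure D4:**
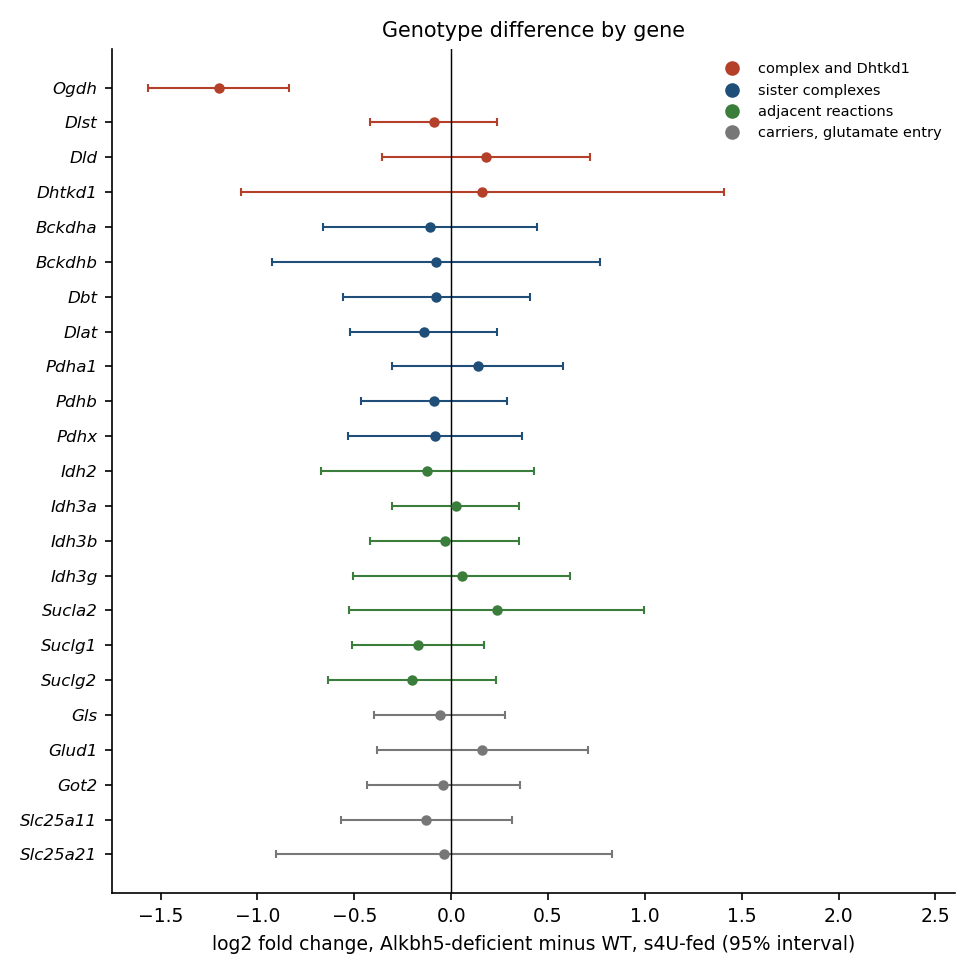
Log2 fold change between Alkbh5-deficient and WT fed libraries (x axis) with 95% intervals from the edgeR fit, for the tested members and for genes of the sister complexes, adjacent reactions and 2-oxoglutarate carriers. Each point is a gene. Ogdh is at -1.20, and its interval ends at -0.84, while the intervals of the others cover 0.

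Likeness to Ogdh was measured as the Pearson correlation of log2 CPM over the 8 libraries, which share the 2 genotypes and so give points in 2 sets. Among 9802 candidate genes, 4 had r above 0.9 with Ogdh. They were Alkbh5 (r = 0.95), which the design removes, Ddx56 (r = 0.94), Nefh (r = 0.91) and the mitochondrial phosphate carrier gene Slc25a3 (r = 0.91). Alkbh5 and Nefh lie on chromosome 11, as Ogdh does, and the chromosomes of the other like genes are not given here. Between genotypes in fed cells, Ddx56 was at -0.55, Nefh at -1.20 and Slc25a3 at -0.27 on the log2 scale, and none of them passed in edgeR. The part of the shared chromosome in the likeness was not tested. Rnf213, Pdcl3, Tmem8 and Setd6 followed with r between 0.89 and 0.90. Neither partner was close to Ogdh, with r = 0.35 for Dlst and r = -0.44 for Dld. Dlst was most like Urb1, Mettl16 and Nfia (r = 0.97, 0.96 and 0.95), and 55 genes had r above 0.9 with it. Dld was most like Syncrip, BC055324 and Tank (r = 0.99 each), and 488 genes had r above 0.9 with it.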

How the data were processed

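The authors deposited 1 table of whole-number read counts per gene for each library, not normalized. The submitters' processing notes name HTSeq, HISAT2, STAR, cutadapt, Picard and DESeq2 and the builds GRCm38 and mm10, without versions, roles or strand setting. Each file also has 928 entries that name no gene, left out of library sizes and tests. The members, lists and tests were chosen with earlier results of these data known.

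The main test was that of edgeR 4.0.16 (R 4.3.3, TMM, default low-count filter, robust quasi-likelihood fit, Benjamini-Hochberg adjustment over all genes at 0.05). The standard error was the log2 fold change divided by the root of F. The genotype fit used the 6 fed libraries, the others all 8. Library-level CPM is TMM-scaled over 8 libraries, and log2 CPM for likeness has a prior count of 2. Alternatives used DESeq2 1.42.0 and limma 3.58.1. Fits were tested on simulated data. Coordinates and lengths are from GENCODE M21, the 1.5-fold length window of the GGACT background was set after values with a narrower window had been seen, and transcripts were aligned with BLAST+ 2.17.0. Intervals of counts are exact binomial at 95% and cover counting error only. Replicate numbers come from the labels. Deviations of same-numbered WT and Alkbh5-deficient fed libraries from their group means correlated across genes at r = 0.68, 0.29 and 0.19. Replicates 2 and 3 correlated as much across numbers (r = 0.35 in both crossings), so the correlations set only replicate 1 apart. A fit with the replicate number as a block was made as an alternative.

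Named genes were the members, Alkbh5, the sister complexes, and in each other list the gene of at least 5 CPM with the largest log2 fold change. Likeness named the 8 genes closest to Ogdh and the 3 closest to Dlst and Dld, without predicted genes and pseudogenes. Genes outside this rule were chosen after their values were seen: Suclg1 and Gcdh. Some listed genes that the rule names are not reported here.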

Additional observations from a re-analysis of the deposited data

How the results depend on the processing

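Ogdh kept its direction in its 16 alternatives, with log2 fold changes from -1.30 to -1.06 and adjusted p from 5.05e-06 to 1.00. It passed in 4 of them: edgeR without the low-count filter (-1.19, adjusted p = 0.00894), DESeq2 (-1.19, adjusted p = 7.57e-06), DESeq2 blocked by replicate number (-1.19, adjusted p = 5.05e-06) and limma voom with weights and the block (-1.25, adjusted p = 0.00399). The number of genes called between genotypes was 1 in edgeR and 2, 2, 6 and 10 in those fits, in the same order. With the replicate block in edgeR, Ogdh was at -1.20 (adjusted p = 0.353) and 1 gene passed, so the block changed no call of a member there. For the ratios, sign flips of same-numbered pairs cannot go below p = 0.25, which both Ogdh ratios had, so neither this replicate block nor the exact test could make a call. Without single fed libraries Ogdh ran from -1.30 to -1.14, Dlst from -0.13 to -0.04, Dld from -0.0273 to 0.33 and Dhtkd1 from -0.0921 to 0.62. The sign of Dld turned without WT fed replicate 3 (-0.0273). That of Dhtkd1 turned without WT fed replicate 1 (-0.0646) or 2 (-0.00115) and without Alkbh5-deficient fed replicate 2 (-0.0921) or 3 (-0.0137). In the same 4 cases its interaction turned, to -0.0968, -0.0393, -0.102 and -0.0386, and with any single fed library left out it ran from -0.102 to 0.61. The causes were not tested. Genes called between fed and unlabelled libraries numbered 4, or 37 without the filter, 557 with DESeq2 and 0 to 2 with a library left out. Ogdh turned from 0.21 to -0.0704 in that comparison without the unlabelled WT library, and single omissions ranged up to 0.50. Depth limits Dhtkd1 and Ogdhl, with at most 28 and 2 counts per library.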
